A study of Mus musculus with 59 samples.

Results

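A set of 9 genes linked to the tumour suppressor p53 was described across skeletal muscles of mice with human melanomas: Cdkn1a, Gadd45a, Gadd45b, Gadd45g, Mdm2, Ccng1, Trp53inp1, Sesn1 and Eda2r. They were taken by symbol, and all 9 were present among the 47643 gene symbols of the deposited table. RNA-seq had been carried out on 59 muscle libraries from female NCI Ath/nude mice, 4 months old, a strain that lacks a working thymus and hence most T cells. Every mouse carried a human melanoma xenograft, which either causes wasting (cachectic, CAC) or does not (non-cachectic, NONCAC), and no group without a tumour was analysed here. Each kind was a single tumour line, so cachexia and tumour line cannot be told apart. Diaphragm groups had received recombinant Fibcd1 (rFibcd1), a secreted protein studied as a muscle-derived signal, or mock injections: 9 NONCAC mock, 10 NONCAC rFibcd1, 10 CAC mock and 10 CAC rFibcd1 libraries. The limb groups were 5 NONCAC and 5 CAC libraries each of the tibialis anterior (TA) and of the soleus, and their labels name no injection. For both cachectic diaphragm groups a legend of the study counts fewer muscles than the table has libraries. Which of them it counts is not given in the sources used here, and all were kept.

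p53 is a transcription factor that is stabilised by DNA damage and other stresses and switches on genes for cell cycle arrest, repair, metabolism and death. Cdkn1a encodes p21, which binds cyclin-dependent kinases and stops the cell cycle. The GADD45 proteins act in stress kinase signalling, repair and DNA demethylation, and in muscle Cdkn1a and Gadd45a are known as genes that rise with denervation, fasting and immobilisation. Mdm2 is the ubiquitin ligase that degrades p53 and is itself a p53 target, Ccng1 encodes cyclin G1, which recruits a phosphatase to Mdm2, and Trp53inp1 encodes a nuclear cofactor of p53. Sesn1 encodes sestrin 1, a stress protein that restrains mTORC1, and Eda2r encodes the receptor for ectodysplasin A2.

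On GRCm38 (GENCODE annotation) Cdkn1a lies on chromosome 17 from 29090976 to 29100727 (plus strand), Gadd45a on 6 from 67035096 to 67037457 (minus), Gadd45b on 10 from 80930073 to 80932204 (plus) and Gadd45g on 13 from 51846678 to 51848468 (plus). Mdm2 lies on 10 from 117688875 to 117710758 (minus), Ccng1 on 11 from 40748552 to 40755311 (minus), Trp53inp1 on 4 from 11156431 to 11174379 (plus), Sesn1 on 10 from 41809935 to 41908424 (plus) and Eda2r on X from 97333840 to 97377216 (minus).

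Promoter windows of these genes were searched for the letters of a single p53 half-site, and sequence outside the windows was not searched. RefSeq windows of 250 bases before to 50 bases after a start (GRCm38.p6) were found for 8 of the 9 genes, in 10 windows, with none for Trp53inp1. The p53 half-site, a consensus of 10 bases that reads the same on both strands, matched in 5 of these 10 windows, each of a different gene, against 8.36% of all 32851 windows. The stretches upstream of the start that hold a match are given below in the gene's own direction, with the matched half-sites in capitals. They run 5′ to 3′, 250 bases for Cdkn1a (chr17:29090729-29090978, plus strand) and Gadd45a (chr6:67037408-67037657, minus strand) and 70 bases around the match for Mdm2 (chr10:117710905-117710974, minus), Ccng1 (chr11:40755432-40755501, minus) and the second Sesn1 window (chr10:41887236-41887305, plus).
Cdkn1a: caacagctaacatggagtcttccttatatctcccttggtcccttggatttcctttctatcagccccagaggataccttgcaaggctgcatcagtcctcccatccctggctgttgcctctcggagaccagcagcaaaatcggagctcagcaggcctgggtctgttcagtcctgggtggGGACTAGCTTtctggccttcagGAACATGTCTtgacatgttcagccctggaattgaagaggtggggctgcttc
Gadd45a: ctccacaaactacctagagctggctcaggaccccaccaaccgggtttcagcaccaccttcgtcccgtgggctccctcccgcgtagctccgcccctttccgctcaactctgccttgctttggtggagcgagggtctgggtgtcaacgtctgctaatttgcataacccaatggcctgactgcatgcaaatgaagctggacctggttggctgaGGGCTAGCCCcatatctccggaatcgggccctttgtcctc
Mdm2: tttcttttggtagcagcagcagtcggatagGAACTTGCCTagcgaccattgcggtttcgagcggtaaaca
Ccng1: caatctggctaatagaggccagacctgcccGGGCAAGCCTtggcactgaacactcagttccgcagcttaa
Sesn1: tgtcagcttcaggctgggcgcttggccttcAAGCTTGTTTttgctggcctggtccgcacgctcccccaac
Counted from the annotated start of the window that holds them, the Cdkn1a half-sites began at -73 and -51 and that of Gadd45a at -40. Those of Mdm2, Ccng1 and Sesn1 began further up, at -186, -185 and -173. The other Cdkn1a window (chr17:29093519-29093818) and the other Sesn1 window (chr10:41810324-41810623) had no half-site. Gadd45b, Gadd45g and Eda2r had no half-site in their windows, and these 3 were the genes with an E-box (CACGTG, either strand, 7.15% of all windows) and also those with a TATA box (TATAAA, either strand, 13.6%). A forkhead motif (TGTTTAC, either strand, 3.65%) was found in windows of Mdm2, Sesn1 and Eda2r, and a CCAAT box (CCAAT, either strand, 37.4%) in 8 of the 10 windows. Each motif was searched alone, so matches may overlap, and a match is a run of letters and not a measured binding site.

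Values are TPM (transcript levels scaled for length and to the same total of 1000000 in every library), so levels can be set side by side between genes but sequencing depth is unknown. Between 16436 and 19456 genes were above 0 per library, and mitochondrial genes took 24.1% to 51.9% of the TPM. Differences are given on the log2(TPM + 1) scale, which understates changes of low genes, with the standard error (SE) of limma fits across all genes kept and p-values adjusted by Benjamini-Hochberg. A gene is said to have risen or fallen where the adjusted p was under 0.05. The columns of the table carry numbers that are not the labelled replicate numbers. They serve here as names, apart from a setting that used them as a block. The labels call the libraries of a group biological replicates without naming the animals, and p-values measure the spread between libraries.

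The libraries also stood apart in a way the labels do not give. By the pseudogene Pcna-ps2, used with its values seen, 36 libraries held at least 5.60 TPM (called high here) and the other 23 no more than 0.428 TPM (called low). In the diaphragm, 3 of 9 NONCAC mock, 6 of 10 NONCAC rFibcd1, 9 of 10 CAC mock and 8 of 10 CAC rFibcd1 libraries were in the high state. In both limb muscles every CAC library was in the high and every NONCAC library in the low state, so there melanoma and state cannot be told apart. Myofibre markers summed to 27600 to 76900 TPM per library, as the tissue labels say, and melanocyte markers to at most 2.40 TPM. In bulk tissue, more cells of a type and more RNA per cell cannot be told apart.

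In NONCAC muscle without rFibcd1, Ccng1 was by far the most abundant of the 9 genes and Eda2r and Trp53inp1 the least. Ccng1 stood at 442 ± 44.8 TPM (SD, n = 9) in the diaphragm, 497 ± 41.1 TPM in TA and 323 ± 31.6 TPM in soleus (SD, n = 5 each). At the other end Eda2r was at 2.85 ± 0.375, 2.55 ± 0.576 and 6.62 ± 1.62 TPM and Trp53inp1 at 4.99 ± 0.551, 3.54 ± 0.840 and 4.74 ± 0.941 TPM in the same order of muscles. The gene for p53 itself, Trp53, was also low, at 8.32 ± 1.07, 4.60 ± 0.397 and 7.87 ± 0.557 TPM. Mdm2 was at 17.9 ± 1.32, 18.6 ± 1.09 and 19.4 ± 0.923 TPM.

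**Figure D1:**
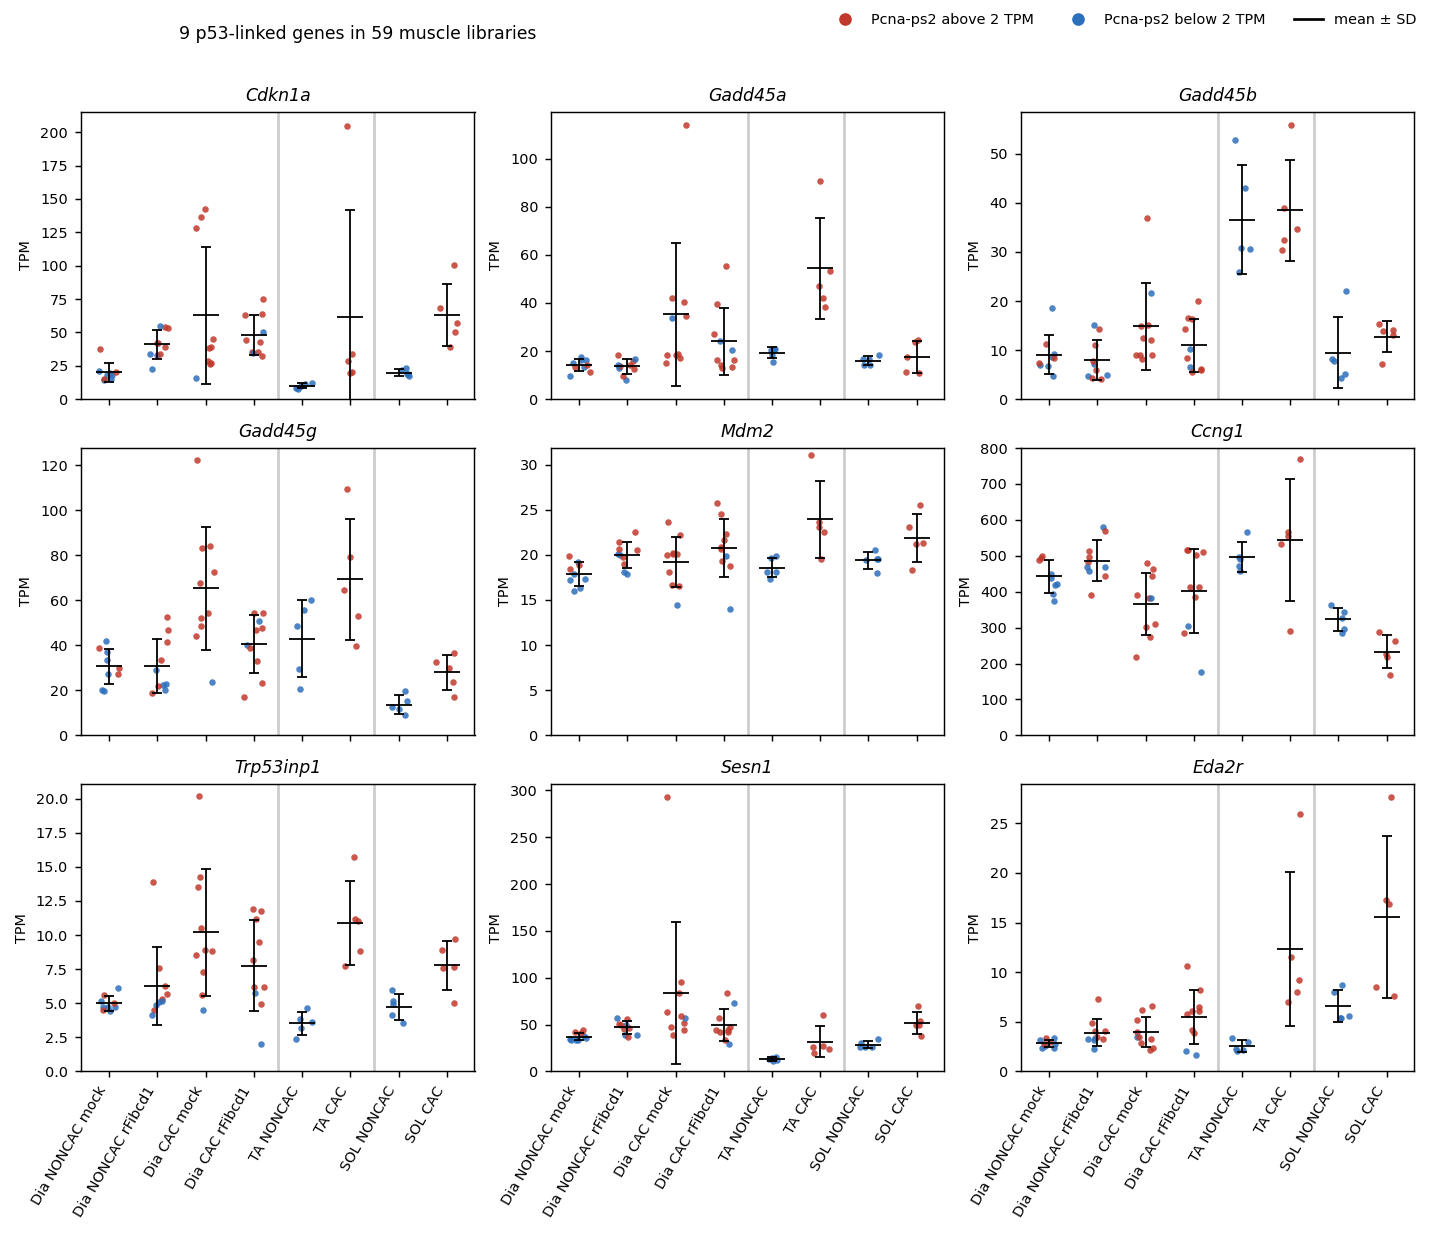
TPM (linear axes from 0) of the 9 genes in 59 libraries of 8 groups, 1 point per library, coloured by the Pcna-ps2 state, with group means ± SD (the lower bar of Cdkn1a in TA CAC is cut at 0). By SD, CAC groups without rFibcd1 spread more widely than their NONCAC groups in every muscle for all genes but Gadd45b. Single libraries stood at 204.3 TPM (Cdkn1a, TA) and 292.7 TPM (Sesn1, diaphragm).

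How the muscles differ in mice with the NONCAC melanoma was asked in the groups without rFibcd1. Gadd45b was higher in TA than in both other muscles, at 36.6 ± 11.04 TPM in TA (SD, n = 5) against 9.08 ± 4.00 in diaphragm (SD, n = 9) and 9.47 ± 7.18 in soleus (SD, n = 5). The TA libraries held 52.8, 25.9, 43.0, 30.6 and 30.8 TPM and the soleus libraries 21.95, 8.18, 7.85, 5.09 and 4.27 TPM, with no overlap, as for 71.3% of all genes between these groups. The difference was -1.93 (SE 0.296, limma adjusted p 6.07e-07) for diaphragm minus TA and 2.01 (SE 0.336, adjusted p 3.67e-06) for TA minus soleus. Diaphragm and soleus were next to each other in the order, with a difference of 0.08 (95% interval -0.52 to 0.68).

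The summed macrophage markers did not overlap between any of these NONCAC muscles, and other cell type markers stood at different levels without a test of their sums. For diaphragm, TA and soleus the median sums were 57, 5.79 and 22.6 TPM for macrophage, 795, 185 and 606 TPM for fibro-adipogenic, 84.3, 0.138 and 0.384 TPM for mesothelial, 15, 13.4 and 22.7 TPM for satellite and 35800, 63000 and 48800 TPM for myofibre markers. Hepatocyte markers ran from 0.31 to 7020 TPM over the diaphragm libraries and reached at most 0.246 TPM in TA and 54.7 TPM in soleus. The part of these levels in the differences between muscles was not tested.

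Sesn1 was ordered diaphragm, soleus, TA, at 37.3 ± 4.00, 28.7 ± 3.86 and 13.2 ± 1.76 TPM. It was higher in diaphragm than in TA by 1.43 (SE 0.271, limma adjusted p 1.92e-05) and lower in TA than in soleus by 1.06 on the log2 scale, while diaphragm minus soleus was 0.37 (adjusted p 0.282) and was called in 1 of 9 alternatives, with only these groups in the fit (adjusted p 0.00186). Gadd45g was lowest in soleus, at 13.7 ± 4.07 TPM against 30.6 ± 7.89 in diaphragm and 42.9 ± 17.1 in TA, with differences of 1.11 (adjusted p 0.00179) for diaphragm minus soleus and 1.52 (adjusted p 8.33e-05) for TA minus soleus. Ccng1 was likewise lowest in soleus, by 0.45 against the diaphragm (adjusted p 0.0251) and by 0.62 against TA (adjusted p 0.00316). Eda2r was the reverse, highest in soleus, with -0.97 for diaphragm minus soleus (adjusted p 0.00136) and -1.09 for TA minus soleus (adjusted p 0.000575).

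Between diaphragm and TA 2 of the 9 genes were called, between diaphragm and soleus 3 and between TA and soleus 5, where 72.5%, 38.8% and 69.5% of the 13501 genes tested were called. The medians of all genes were 0.44, -0.04 and -0.47 for the same 3 pairs, and the calls split into 8640 higher and 1150 lower, 2266 and 2977, and 760 and 8625 (4669 and 4909, 3137 and 3242, and 3808 and 3389 under median-ratio scaling). Relative to these medians Gadd45b differed by -2.37 (diaphragm minus TA) and 2.48 (TA minus soleus) and Sesn1 by 0.99 and -0.59. The Ccng1 call between diaphragm and soleus was lost without either of 2 soleus libraries (columns 63 and 64, adjusted p up to 0.0701 over libraries left out). In TA against soleus, Gadd45b, Gadd45g and Ccng1 were called under all 9 alternative settings. Sesn1 was called in 7 of 9, with -0.46 (adjusted p 0.171) under median-ratio scaling and -0.57 (adjusted p 0.106) under quantile normalization, and Eda2r in 8 of 9, with -0.48 (adjusted p 0.0927) under quantile normalization. Mdm2, with -0.06 for TA minus soleus, took the opposite sign and was called under median-ratio scaling (0.54, adjusted p 1.31e-08) and quantile normalization (0.42, adjusted p 1.96e-06), and for diaphragm minus TA it was called at -0.61 and -0.46 under these scalings. Cdkn1a, Gadd45a, Mdm2 and Trp53inp1 did not pass between any pair of muscles in the fit reported here. Between diaphragm and TA, however, Cdkn1a, Gadd45a and Trp53inp1 were each called in 4 of 9 alternatives, with adjusted p from 0.000403 to 0.431, 0.00236 to 0.232 and 0.00147 to 0.8, and between TA and soleus in 3, 2 and 2 of 9. Gadd45g, Ccng1 and Eda2r were called for diaphragm against TA in 2, 3 and 1 of 9. Their lowest limma adjusted p were 0.00328, 0.00173 and 0.0169. For Cdkn1a the values were 20.03 ± 7.06 TPM in diaphragm, 19.9 ± 2.56 in soleus and 10.2 ± 1.90 in TA (diaphragm minus TA 0.88, adjusted p 0.0635). Without TA column 8 of the CAC group, which enters the shared spread, Cdkn1a passed in both pairs that involve TA (lowest adjusted p 0.0256 and 0.0407).

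The main question was what the cachectic melanoma does to these genes in the mock-injected diaphragm. Cdkn1a, Gadd45a, Gadd45g, Sesn1 and Trp53inp1 were higher with the CAC than with the NONCAC melanoma, by 1.75-fold to 2.40-fold, while Mdm2, Ccng1, Gadd45b and Eda2r did not pass. These are 5 of 9 genes higher and 0 lower, where 33.5% of 13426 genes were called. All genes moved up on median by 0.20 in this comparison, 4143 called higher and 358 lower, and under median-ratio scaling the split was 992 higher and 1129 lower. Relative to that median the 5 genes were higher by 0.60 to 1.06.

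Cdkn1a ranged from 14.2 to 37.6 TPM with the NONCAC melanoma (median 18.5, n = 9) and from 16.1 to 142.5 TPM with the CAC melanoma (median 38.4, n = 10). The CAC libraries fell apart into 3 at 128.5, 136.2 and 142.5 TPM and 7 at 45.2 TPM or less, so the groups overlapped. The difference was 1.26 (SE 0.292, 95% interval 0.67 to 1.85, limma adjusted p 0.00146). It held in 11 of 12 alternatives, with 0.99 (adjusted p 0.0258) when library state was a term and 1.20 (adjusted p 0.0952) within high-state libraries, 9 against 3.

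Of the 3 Gadd45 genes 2 rose. Gadd45a ranged from 9.74 to 17.4 TPM (median 14.1) with the NONCAC and from 15.3 to 114.1 TPM (median 26.2) with the CAC melanoma, a difference of 1.00 (SE 0.265, limma adjusted p 0.00459). Its highest CAC library, column 20, stood far above the next at 41.9 TPM, and without it the difference was 0.78 (adjusted p 0.00988). Gadd45g, at 19.6 to 42.1 TPM (median 30.04) against 23.9 to 122.1 TPM (median 61.1), rose by the same 1.00 (SE 0.235, adjusted p 0.00169) without such a lone library. Gadd45b ranged from 4.69 to 18.6 TPM (median 8.42) and from 8.14 to 37.0 TPM (median 12.3), with 0.59 (SE 0.269, adjusted p 0.0863), and it passed without the NONCAC library of column 61 (0.72, adjusted p 0.0416).

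Sesn1 ranged from 33.3 to 44.2 TPM (median 35.8) with the NONCAC and from 39.2 to 292.7 TPM (median 57.7) with the CAC melanoma. Its difference was 0.86 (SE 0.222, limma adjusted p 0.0036), and without column 20, the same library as for Gadd45a, it was 0.63 (adjusted p 0.00326). That library also held 136.2 TPM of Cdkn1a. Trp53inp1 went from 4.42 to 6.12 TPM (median 4.75) to 4.53 to 20.2 TPM (median 8.87), by 0.80 (SE 0.222, adjusted p 0.00595), and with library state as a term it was 0.51 (adjusted p 0.116). Gadd45a and Sesn1 were each called in 9 of 12 alternatives (adjusted p up to 0.132 and 0.209). They missed the threshold under median-ratio scaling (0.78, adjusted p 0.0513, and 0.63, adjusted p 0.0572), under quantile normalization (0.75, adjusted p 0.0513, and 0.62, adjusted p 0.0514) and within high-state libraries. Trp53inp1 was called in 10 and Gadd45g in 11 of 12.

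The p53 feedback gene Mdm2 was at 17.9 ± 1.32 TPM (SD, n = 9) and 19.2 ± 2.77 TPM (SD, n = 10), a difference of 0.09 (95% interval -0.08 to 0.25). Its sign turned under median-ratio scaling (-0.13), quantile normalization (-0.14) and library state as a term (-0.04), and it was called in 0 of 12 alternatives (adjusted p 0.105 to 0.81). Ccng1 was at 442 ± 44.8 and 365 ± 86.7 TPM, with -0.31 (SE 0.149, limma adjusted p 0.102), and it was called lower in 5 of 12 alternatives, among them median-ratio scaling (-0.54, adjusted p 0.00765) and library state as a term (-0.45, adjusted p 0.0451; range over the alternatives 0.00765 to 0.157), and without column 11 of the CAC rFibcd1 group (adjusted p 0.04). Eda2r was at 2.85 ± 0.375 and 3.96 ± 1.54 TPM, with 0.31 (95% interval -0.09 to 0.72), and Trp53 at 8.32 ± 1.07 and 11.01 ± 2.16 TPM, with 0.35 (adjusted p 0.0647).

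Every one of the 9 genes overlapped between the mock diaphragm groups, as did all but 4.36% of genes tested. Macrophage markers were called higher in 2 of 5 tested and neutrophil markers in 2 of 2, their summed levels running from 32.2 to 67.0 and 3.03 to 20 TPM with the NONCAC and from 43.0 to 164 and 9.35 to 53.5 TPM with the CAC melanoma, and satellite cell markers from 12.4 to 16.6 and 12.5 to 23.7 TPM. Mitochondrial genes took 47.5% ± 2.97 and 38.1% ± 3.18 of the TPM. Endothelial and fibro-adipogenic markers were higher in 1 of 3 and 1 of 4, and B cell, adipocyte, hepatocyte and mesothelial markers in 0 of 13 by limma (2 at an unadjusted p under 0.05), hepatocyte sums running from 0.31 to 7020 TPM and from 3.18 to 1900 TPM. The part of these shifts in the result was not tested. Within high-state libraries, 9 against 3, 0 of the 9 genes were called by limma, where 5.69% of all genes were called in place of 33.5%, with differences of 0.71 to 1.20 for the 5 genes that rose in the full comparison.

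In TA, Cdkn1a, Gadd45a, Trp53inp1, Sesn1 and Eda2r were 2.13-fold to 3.55-fold higher with the CAC melanoma without any overlap between libraries, and Mdm2 passed with a small difference. That made 6 of 9 genes higher and 0 lower, where 60.2% of 11105 genes were called and 51.7% did not overlap. The median of all genes was 0.41 here, with 6260 called higher and 420 lower, and under median-ratio scaling 2043 higher and 2433 lower. Relative to that median the 5 non-overlapping genes were higher by 0.68 to 1.42.

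Cdkn1a in TA stood at 8.62, 12.5, 10.1, 11.6 and 8.01 TPM with the NONCAC melanoma and at 19.9, 28.3, 204.3, 20.1 and 33.6 TPM with the CAC melanoma. Every CAC library lay above every NONCAC library, and 1 of them, column 8, lay far above the rest. The difference was 1.83 (SE 0.51, 95% interval 0.72 to 2.94, limma adjusted p 0.0121), and without column 8 it was 1.23 (adjusted p 0.000193). Of the clock genes in these groups, Arntl (the clock activator BMAL1) ran from 1.57 to 2.84 TPM and from 3.09 to 40.9 TPM with no overlap and Dbp (a clock output gene) from 71.4 to 98.1 TPM and from 9.53 to 78.5 TPM, and their part in the TA result was not tested. Gadd45a stood at 20.4, 18.6, 20.9, 21.02 and 15.6 TPM and at 42.2, 53.5, 90.5, 47.0 and 38.5 TPM, by 1.39 (SE 0.2, adjusted p 6e-04).

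Eda2r, which did not pass in the diaphragm, stood at 2.17, 2.23, 2.05, 2.92 and 3.38 TPM with the NONCAC and at 8.02, 9.17, 25.9, 7.01 and 11.6 TPM with the CAC melanoma in TA. That is a difference of 1.77 (SE 0.279, limma adjusted p 0.000927), and 1.48 (adjusted p 2.86e-05) without column 8. Trp53inp1 went from 3.86, 4.67, 3.64, 3.15 and 2.41 TPM to 7.71, 11.2, 15.7, 8.81 and 11.1 TPM, by 1.37 (SE 0.186, adjusted p 0.000415). Sesn1 went from 14.1, 13.6, 12.3, 15.4 and 10.8 TPM to 19.9, 27.5, 60.7, 25.9 and 24.4 TPM, by 1.09 (SE 0.242, adjusted p 0.0047). These 4 genes with Cdkn1a kept their call under all 8 alternatives.

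Mdm2 in TA moved from 19.9, 17.3, 18.1, 19.6 and 18.1 TPM to 19.5, 22.5, 31.0, 23.1 and 23.6 TPM, by 0.33 (SE 0.123, limma adjusted p 0.0342), which is 0.08 below the median of all genes. Its direction flips to -0.15 under median-ratio scaling and to -0.11 under quantile normalization, so the call rests on the scaling, and it was lost without any of 7 single libraries (adjusted p 0.0117 to 0.0763 over libraries left out). Gadd45g, at 20.6, 59.96, 55.8, 29.3 and 48.6 TPM and at 53.2, 79.2, 39.8, 109.6 and 64.6 TPM, had 0.70 (adjusted p 0.0691), and 0.88 (adjusted p 0.0298) without column 8. Gadd45b (0.08) and Ccng1 (0.07) lay under the median of all genes. Without column 8, Ccng1 was at 0.27 (adjusted p 0.044) and 8 of the 9 genes were called, where the share of all genes called was 66.7% in place of 60.2%.

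The library of column 8 in TA differed in more than these genes. Its satellite cell markers summed to 77.5 TPM against 20.3 to 28.1 in the other CAC libraries, its macrophage markers to 51.0 TPM against 7.33 to 25.4, its neutrophil markers to 49.1 TPM against 6.47 to 18.9 and its myofibre markers to 31300 TPM against 49900 to 56800. Over the whole TA groups, the sums with the NONCAC and the CAC melanoma ran from 12.5 to 13.8 and 20.3 to 77.5 TPM for satellite markers and from 0.969 to 3.65 and 6.47 to 49.1 TPM for neutrophil markers, neither with overlap. For macrophage markers they ran from 4.65 to 8.69 and 7.33 to 51 TPM, for fibro-adipogenic markers from 129 to 244 and 207 to 434 TPM, and for myofibre markers from 52200 to 65700 and 31300 to 56800 TPM. Mitochondrial genes took 48.5% ± 1.8 and 38.8% ± 8.12 of the TPM (SD, n = 5 each), and the part of these shifts in the result was not tested. Trp53 stood at 4.60 ± 0.397 TPM in NONCAC and 9.51 ± 4.52 TPM in CAC libraries of TA (SD, n = 5 each), a difference of 0.82 (SE 0.22, limma adjusted p 0.0103). In soleus it did not pass, with 0.22 (adjusted p 0.247).

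In soleus, Cdkn1a, Gadd45g, Trp53inp1, Sesn1 and Eda2r were higher with the CAC melanoma and Ccng1 was lower, 6 of 9 genes, where 25.1% of 11957 genes were called, 2098 higher and 901 lower (1820 and 1530 under median-ratio scaling). The median of all genes was 0.09. Dunn's rank test is the kind the study used, there with cutoffs on p and fold change. With Benjamini-Hochberg adjustment it called 2 of the 9 here, Cdkn1a and Sesn1, and 20% of all genes. Those 2394 genes were as many as did not overlap between the groups, so with 5 libraries each the test adds little to overlap.

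Cdkn1a in soleus stood at 18.6, 21.9, 18.5, 23.3 and 17.2 TPM with the NONCAC and at 39.1, 68.3, 100.2, 56.9 and 50.3 TPM with the CAC melanoma. The groups did not overlap, and the difference was 1.55 (SE 0.205, 95% interval 1.10 to 2.00, limma adjusted p 0.000547), called under all 8 alternatives. Sesn1 stood at 25.8, 26.1, 34.7, 30.4 and 26.3 TPM and at 37.8, 49.5, 70.4, 53.6 and 50.1 TPM, by 0.83 (SE 0.146, adjusted p 0.00272), again with no overlap and with the call kept under all 8. Groups without overlap were found for 2394 of the genes tested in soleus. Dbp was among them, at 115.1 to 171.3 TPM with the NONCAC and 34 to 102.9 TPM with the CAC melanoma, and Arntl ran from 2.27 to 5.15 TPM and from 4.98 to 10.7 TPM. The part of the clock genes in the soleus result was not tested.

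Gadd45g in soleus went from 11.7, 19.6, 12.8, 8.87 and 15.4 TPM to 23.6, 36.5, 32.7, 29.9 and 17.0 TPM, by 0.98 (SE 0.224, limma adjusted p 0.0091). Gadd45a did not pass, at 16.6, 14.3, 18.4, 16.6 and 14.1 TPM and at 11.2, 23.6, 24.7, 17.5 and 10.9 TPM, with 0.06 (95% interval -0.41 to 0.53; -0.06 at the lowest of 8 alternatives). Its CAC libraries lay on both sides of the NONCAC range. Gadd45b, at 9.47 ± 7.18 and 12.7 ± 3.18 TPM (SD, n = 5 each), had 0.56 (adjusted p 0.254), and 0.90 (adjusted p 0.0218) without NONCAC column 61.

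Ccng1 in soleus fell from 344, 362, 286, 297 and 327 TPM to 218, 227, 168, 263 and 289 TPM, by 0.49 on the log2 scale (SE 0.135 in limma, adjusted p 0.0219). The highest CAC library overlapped the lowest NONCAC library, and the call was lost without NONCAC column 61 or 62 (adjusted p up to 0.0588). Trp53inp1, at 4.74 ± 0.941 and 7.79 ± 1.79 TPM, was higher by 0.60 (SE 0.164, adjusted p 0.0201), and Eda2r, at 5.41, 5.40, 5.56, 8.75 and 8.00 TPM and at 7.61, 17.3, 16.9, 27.7 and 8.48 TPM, by 1.00 (SE 0.298, adjusted p 0.0299). Ccng1, Trp53inp1 and Eda2r were each called in 6 of 8 alternatives. By Dunn's test they had adjusted p of 0.0641, 0.0898 and 0.126, in one fit of all 59 libraries Ccng1 (0.091) and Trp53inp1 (0.132) were lost as well, and without a filter Eda2r (0.059) was. The Eda2r call was lost without any of 5 single libraries, for example at 0.94 (adjusted p 0.0616) without column 8. Mdm2, at 19.4 ± 0.923 and 21.9 ± 2.67 TPM, had 0.16 (95% interval -0.04 to 0.36). In soleus the sums with the NONCAC and the CAC melanoma ran from 45100 to 54700 and 57700 to 76900 TPM for myofibre markers and from 2.77 to 4.69 and 7.13 to 30.5 TPM for neutrophil markers, neither with overlap. They ran from 507 to 697 and 190 to 552 TPM for fibro-adipogenic, from 16.3 to 25.8 and 15.7 to 108 TPM for macrophage and from 22.2 to 25.7 and 23.8 to 46.9 TPM for satellite markers. Mitochondrial genes took 39% to 44% and 24.1% to 34.6% of the TPM, and the part of these shifts in the result was not tested.

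**Figure D2:**
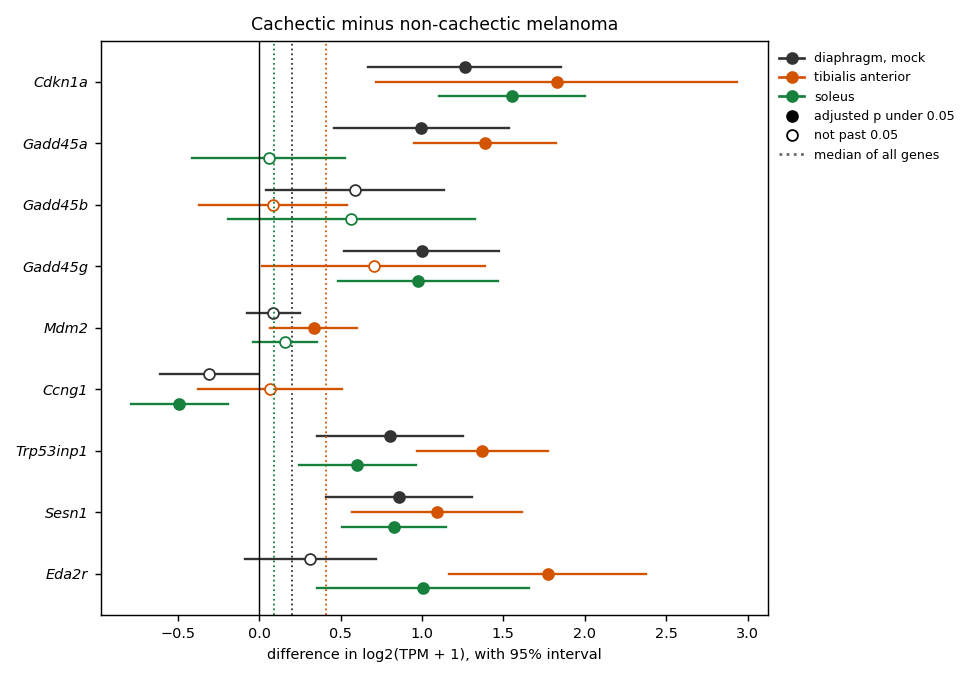
Difference in log2(TPM + 1) between CAC and NONCAC melanoma for each gene (points, filled where the adjusted p was under 0.05) with 95% intervals, in mock diaphragm, TA and soleus, and the median of all genes in each comparison as dotted lines. Cdkn1a, Trp53inp1 and Sesn1 are filled in all 3 muscles, Gadd45a is filled in diaphragm and TA but near 0 in soleus (0.06), and Eda2r is filled in both limb muscles only.

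Whether the effect of the melanoma differs between muscles was tested directly in 39 libraries without rFibcd1, with the same NONCAC and CAC libraries entering more than one comparison. Eda2r responded less in the diaphragm than in TA, with a difference of the 2 effects of -1.46 (SE 0.332, 95% interval -2.13 to -0.78, limma adjusted p 0.00845). This was 1 of the 9 genes, where 5.04% of genes were called (96 higher and 585 lower, 423 and 272 under median-ratio scaling), and it was called in all 8 alternatives, from -1.70 to -1.12. Gadd45a responded more in TA than in soleus, by 1.33 (SE 0.463, adjusted p 0.0401), again 1 of 9 where 20.4% were called (2580 higher and 170 lower, 509 and 1042 under median-ratio scaling). Relative to the medians of all genes, -0.18 and 0.30, these differences were -1.27 and 1.02. The Gadd45a call was kept in 4 of 8 alternatives (adjusted p 0.00318 to 0.229) and was lost without any of 11 single libraries, TA column 8 among them (1.13, adjusted p 0.106). Column numbers recur between the muscles, NONCAC column 61 having the highest Gadd45b in each and CAC column 8 the highest Cdkn1a in both limb muscles, while the fit took no account of this. When a random block on those numbers was added, a setting chosen after seeing the data, 3 of the 9 effects differed between TA and soleus in place of 1, while the share of all genes called went from 20.4% to 41.2%. They were Gadd45a (adjusted p 0.00318), Ccng1 (0.56, adjusted p 0.019) and Trp53inp1 (0.77, adjusted p 0.0168). Ccng1, Trp53inp1 and Eda2r passed for TA against soleus without TA column 8, without TA column 6 or diaphragm column 20, and without soleus column 9, in turn (lowest adjusted p 0.0252, 0.0441 and 0.0468).

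Between diaphragm and soleus 0 of the 9 effects differed by limma, where 2.52% of genes were called (263 higher and 77 lower, 173 and 330 under median-ratio scaling), and 2 had an unadjusted p under 0.05: Gadd45a, with 0.94 (p 0.0265 in limma), and Eda2r, with -0.69 (p 0.0451 in limma). Dunn's test was not run on differences of effects. The effect on Cdkn1a was not shown to differ between any muscles, with -0.57 for diaphragm minus TA (95% interval -1.78 to 0.64), -0.29 for diaphragm minus soleus (-1.50 to 0.92) and 0.28 for TA minus soleus (-1.11 to 1.66). These intervals are wide. For Mdm2 they were narrower, for example -0.33 to 0.18 for diaphragm minus soleus.

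Of 24 other p53 target genes, chosen from general knowledge of the pathway, 21 were tested in the mock diaphragm, with 6 higher and 0 lower and a median of 0.27 (0.20 over all genes). In TA 10 of 18 were higher and 0 lower, with a median of 0.46 (0.41 over all genes), and in soleus 4 of 20 were higher and 1 lower, with a median of 0.12 (0.09 over all genes). Over all genes 33.5%, 60.2% and 25.1% were called in these comparisons, and the share called in the list was no higher in any of the muscles.

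Btg2, an antiproliferative cofactor, had the largest change of the list in the mock diaphragm, from 30.5 to 71.3 TPM on average, by 0.92 (SE 0.287, limma adjusted p 0.0132). Fas, the death receptor, followed with 0.64 (adjusted p 0.00638) and led in TA, by 1.20 (SE 0.302, adjusted p 0.0081), at 11.4 TPM against 3.93 TPM, next to Tnfrsf10b, another death receptor (0.78, adjusted p 0.00747). In soleus Perp, a membrane protein of the death pathway, rose by 0.66 (adjusted p 0.0153), and Plk3, a stress kinase, fell by 0.73 on the log2 scale (adjusted p 0.0137).

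**Figure D3:**
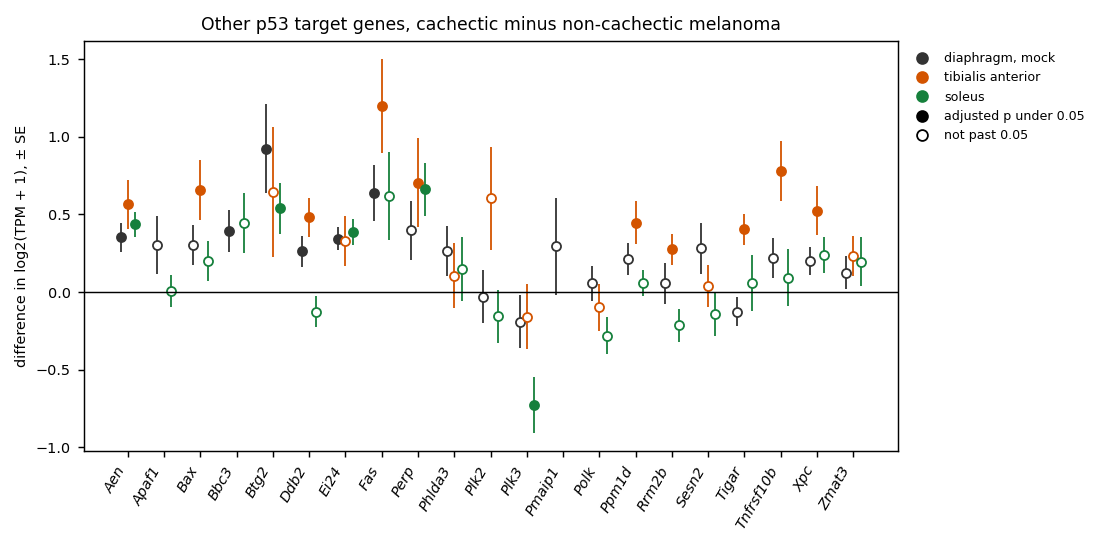
Difference in log2(TPM + 1) between CAC and NONCAC melanoma (± SE) for the other p53 target genes tested, in mock diaphragm, TA and soleus, filled where the adjusted p was under 0.05. Fas (1.20) in TA and Btg2 (0.92) in diaphragm lie highest, Plk3 (-0.73) in soleus lies lowest.

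Of 11 tested regulators in each muscle 2 were higher in diaphragm, 6 in TA, and 2 higher and 1 lower in soleus, beside 33.5%, 60.2% and 25.1% of all genes. In TA Trp53 itself led with 0.82, and Mdm4, the partner of Mdm2, rose from 7.46 to 13.8 TPM, by 0.80 (SE 0.133, limma adjusted p 0.0013), and Rchy1, another ubiquitin ligase for p53, rose in soleus by 0.65 (adjusted p 0.0034), followed by Trp53bp1, a DNA damage adaptor (0.55). Usp7, which removes ubiquitin from p53 and Mdm2, led in the diaphragm with 0.31, followed by Rchy1 (0.26).

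Beside the same shares of all genes (33.5%, 60.2% and 25.1%), other CDK inhibitors were higher in 3 of 6 tested in diaphragm (Cdkn2d 0.46, Cdkn1c 0.33), in 4 of 5 in TA (Cdkn2c 0.83, Cdkn1b 0.64) and in 0 of 5 by limma in soleus, where 0 had an unadjusted p under 0.05. Ccnd1, the cyclin D1 that p21 can bind, fell in all 3 muscles, from 9.16 to 5.26 TPM in diaphragm (by 0.81 on the log2 scale, limma adjusted p 0.0374), from 2.51 to 1.11 TPM in TA (by 0.71, adjusted p 0.00865) and from 7.04 to 3.41 TPM in soleus (by 0.89, adjusted p 0.00864). The whole list of cyclins, CDKs and their targets gave 2 higher and 2 lower of 11, 3 higher and 2 lower of 7, and 0 higher and 2 lower of 7. Next to Ccnd1 the largest changes were of Rb1, the retinoblastoma protein, in diaphragm (0.38), of Cdk4, the kinase partner of cyclin D1, in TA (0.70) and of Ccne2, a cyclin E, in soleus (-0.64). Proliferation genes were not called by limma in any muscle, 0 of 8, 0 of 2 and 0 of 3 tested, with 0 at an unadjusted p under 0.05.

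The counts for lists around the other members are likewise to be read beside 33.5%, 60.2% and 25.1% of all genes called, and nothing particular to the lists is drawn from them. Of the sestrin and GATOR genes around Sesn1, 4 of 10 were higher in diaphragm, 5 of 10 in TA, and 2 higher and 1 lower of 10 in soleus, and Nprl3, a GATOR1 subunit, led in diaphragm (0.42) and TA (0.67), followed by Seh1l, a GATOR2 subunit (0.34 and 0.62). In soleus Depdc5, another GATOR1 subunit, had -0.36 and Seh1l 0.32. Among stress kinases that Gadd45 proteins can act on, 2 were higher and 1 lower of 9 in diaphragm, 3 and 1 of 9 in TA and 1 and 1 of 9 in soleus. The one that was lower was Map2k6, an activator of p38, in each of the muscles, at -0.74, -1.72 and -1.66. Mapk11, a p38 kinase, was the next by size in diaphragm (0.53) and TA (0.76), and Map2k3, another activator of p38, in soleus (0.62). Around Eda2r, 2 of 8, 3 of 7 and 4 of 8 genes of the ectodysplasin and NIK pathway were higher, Map3k14, which encodes NIK, in each of them (0.63, 0.89 and 0.73). Nfkb2, the NF-kappaB subunit that NIK signalling processes, had 0.44 in diaphragm and 1.03 in TA. Tnfrsf12a, the receptor for TWEAK, led that list in soleus, from 50.95 to 231.3 TPM, by 2.14 (SE 0.195, limma adjusted p 4.74e-05).

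Among programmes known to accompany muscle wasting, denervation genes were higher in 4 of 8, 4 of 5 and 3 of 7 tested (2 lower) in diaphragm, TA and soleus, genes of the integrated stress response in 3 of 8, 5 of 8 (1 lower) and 2 of 8 (1 lower), and glucocorticoid response genes in 5 of 8, 5 of 8 (1 lower) and 4 of 8, beside 33.5%, 60.2% and 25.1% of all genes called in either direction. In the denervation list Runx1, a transcription factor, had 0.69 in diaphragm. In TA the largest changes were of Myog, the myogenic factor myogenin (1.15), and Chrna1, an acetylcholine receptor subunit (0.98), and in soleus of Myog (1.38) and Dach2, a transcriptional cofactor (-0.72). In the stress response list they were of Asns, asparagine synthetase (1.00), and Trib3, a pseudokinase (0.40), in diaphragm, of Chac1, which degrades glutathione (1.71), and Asns (1.01) in TA, and of the transcription factor Atf3 (1.80) and the phosphatase subunit Ppp1r15a (0.93) in soleus. Among glucocorticoid response genes they were of Fkbp5, a glucocorticoid receptor chaperone, by 2.74 in diaphragm, 3.13 in TA and 1.78 in soleus, and of the transcription factor Cebpd, by 2.25, 2.96 and 2.10.

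Whether rFibcd1 altered these genes was asked in the diaphragm. With the CAC melanoma 0 of the 9 genes were called by limma between rFibcd1 and mock, and 0 by Dunn's test (which called 0 of all genes), where by limma 0.0447% of genes were called (5 higher and 1 lower, 15 and 12 under median-ratio scaling). With an unadjusted limma p under 0.05 there were 2, both lower with rFibcd1. Gadd45g ranged from 23.9 to 122.1 TPM (median 61.1) with mock and from 17.2 to 54.5 TPM (median 43.4) with rFibcd1, a difference of -0.63 (SE 0.229, limma p 0.00858, adjusted p 0.323). Sesn1 ranged from 39.2 to 292.7 TPM (median 57.7) and from 28.8 to 84.3 TPM (median 44.2), with -0.52 (SE 0.216, limma p 0.0213, adjusted p 0.394). All 9 genes overlapped between the groups, as did every one of the 13426 genes tested.

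Within high-state libraries the Gadd45g difference was -0.84 (limma adjusted p 0.0422), 1 of 12 alternatives in which it was called (adjusted p 0.0422 to 0.938 over these), where 5.57% of all genes were called. Cdkn1a had a mean of 62.8 ± 51.1 TPM (SD, n = 10) with mock and 47.8 ± 14.9 TPM (SD, n = 10) with rFibcd1, but on the log2 scale the difference was -0.05 (95% interval -0.62 to 0.53). The 3 mock libraries at 128.5 TPM or more lay above all rFibcd1 libraries, the highest of which was at 75.3 TPM. Eda2r was at 3.96 ± 1.54 and 5.51 ± 2.72 TPM, with 0.32 (95% interval -0.07 to 0.72).

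With the NONCAC melanoma rFibcd1 libraries held more Cdkn1a than mock libraries, but the difference did not pass. Cdkn1a ranged from 14.2 to 37.6 TPM (median 18.5, n = 9) with mock and from 23.0 to 54.8 TPM (median 40.8, n = 10) with rFibcd1. The groups overlapped only through the highest mock library, column 66, since the next was at 21.5 TPM. The difference was 1.01 (0.86 relative to the median of all genes, SE 0.292, 95% interval 0.42 to 1.60, limma p 0.00138, adjusted p 0.14), and it was the one gene of the 9 with an unadjusted p under 0.05. By limma 0 of 9 and by Dunn's test 0 of 9 were called, where 0.417% (47 higher and 9 lower, 28 and 27 under median-ratio scaling) and 0.104% of genes were called. Mitochondrial genes took 47.5% ± 2.97 of the TPM with mock and 43.9% ± 2.95 with rFibcd1. Median fibro-adipogenic and adipocyte marker sums were 795 and 58.8 TPM with mock and 1010 and 134 TPM with rFibcd1, with overlap. High-state libraries were 3 of 9 and 6 of 10, and the part of these shifts was not tested.

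With only these groups in the fit Cdkn1a had an adjusted p of 0.00176 and with array weights of 4.94e-04 (limma), the range over 12 alternatives being 0.000494 to 1. Clock genes moved with this comparison: Arntl stood at 4.50 ± 4.28 TPM with mock (SD, n = 9) and at 21.5 ± 7.91 TPM with rFibcd1 (SD, n = 10), and Dbp at 116 ± 30.4 and 27.2 ± 18.7 TPM. With the difference of these clock genes as a term, a setting chosen after seeing the data, the Cdkn1a difference was -0.01 (adjusted p 1). In that setting 0 of the 13426 genes tested were called by limma. The term largely followed the groups compared, so this fit cannot tell its part from that of rFibcd1. The other 8 genes differed by -0.21 to 0.32 between the groups. With array weights Mdm2 (0.17, adjusted p 0.00754), Sesn1 (0.35, adjusted p 0.0325) and Eda2r (0.36, adjusted p 0.026) were called beside Cdkn1a, where 39.9% of all genes were called. With only these groups in the fit Mdm2 (0.15, adjusted p 0.038) and Sesn1 (0.32, adjusted p 0.019) were, where 19.6% were, and in the other alternatives 0 of these 3 were called, with adjusted p up to 1.

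With rFibcd1 in both groups, 0 of the 9 genes were called by limma between CAC and NONCAC melanoma, and 0 by Dunn's test (which called 0 of all genes), where by limma 9.11% of genes were called (958 higher and 265 lower, 568 and 636 under median-ratio scaling). An unadjusted p under 0.05 was found for 2. Gadd45a ranged from 8.01 to 18.3 TPM (median 14.01) with the NONCAC and from 13.1 to 55.6 TPM (median 18.3) with the CAC melanoma, by 0.65 (SE 0.258, adjusted p 0.103, and 0.0437 without column 20 of the CAC mock group, which enters the shared spread), and Ccng1 was at 487 ± 56.5 and 402 ± 116.5 TPM (SD, n = 10 each), with -0.33 (adjusted p 0.14). Cdkn1a was at 41.0 ± 10.7 and 47.8 ± 14.9 TPM, with 0.21 (95% interval -0.37 to 0.78) and with 0.74 (adjusted p 0.0599) when the clock genes were a term, the ends over 12 alternatives being 0.01 and 0.74. Gadd45g had 0.39 (-0.07 to 0.86) and Sesn1 0.02 (-0.42 to 0.46).

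The effect of the melanoma was not shown to differ between rFibcd1 and mock. The interaction was called for 0 of the 9 genes by limma, where 0.0223% of genes were called (1 higher and 2 lower, 0 and 2 under quantile normalization), and Dunn's test was not run on it. An unadjusted p under 0.05 was found for 2, Sesn1 with -0.84 (SE 0.31, p 0.00999 and adjusted p 0.539 in limma) and Cdkn1a with -1.06 (SE 0.408, p 0.0136 and adjusted p 0.547 in limma). Gadd45g had -0.60 (95% interval -1.27 to 0.06) and Trp53inp1 -0.57 (-1.20 to 0.05), and Mdm2 stayed within -0.27 to 0.18. Over 10 alternatives the interaction of Cdkn1a ran from -1.20 to -0.19 and was called in 0, and with the clock genes as a term it was at the end nearest to 0.

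**Figure D4:**
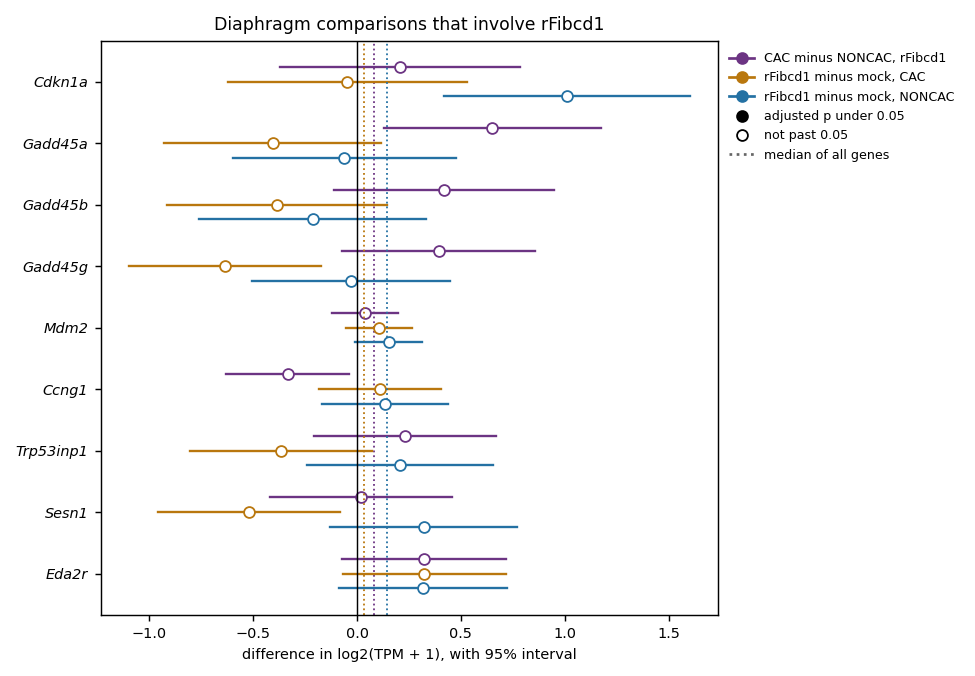
Difference in log2(TPM + 1) with 95% intervals for the 9 genes in 3 diaphragm comparisons that involve rFibcd1, all points open since no adjusted p was under 0.05, with the median of all genes in each as dotted lines. The interval of Cdkn1a lies above 0 for rFibcd1 minus mock with the NONCAC melanoma (0.42 to 1.60) and that of Gadd45g below 0 for rFibcd1 minus mock with the CAC melanoma (-1.10 to -0.17).

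Whether the members vary together beyond the labelled groups was asked with deviations from the group means in 39 diaphragm libraries, by permuting libraries within groups. Of 8 relations with Cdkn1a, 1 passed. Libraries with more Cdkn1a than their group also had more Mdm2, with Pearson's r 0.559 and Spearman's rho 0.572 (permutation p 0.00081 and 0.00059, adjusted over the 8 relations 0.00648 and 0.00472), and r was 0.511 without the 2 libraries with Cdkn1a farthest from the median. With deviations from the means of group and state r was 0.484. It was 0.586 in the 26 high-state and 0.0989 in the 13 low-state libraries.

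Sesn1 and Ccng1 came next. For Sesn1 r was 0.512 and rho 0.391 (permutation p 0.016 and 0.0306, adjusted 0.0641 and 0.122), and r was 0.183 without the 2 farthest libraries, so the relation rests on those, 1 of which is column 20. For Ccng1 r was -0.352 and rho -0.353 (permutation p 0.0486 and 0.0467, adjusted 0.13 and 0.125), and without the 2 libraries r was -0.12. With deviations from the means of group and state it was -0.532 and passed the permutation test, as Mdm2 did, with -0.63 in the high-state and 0.105 in the low-state libraries. The remaining 5 relations had r of 0.0568 to 0.317 and rho of -0.0182 to 0.207, so Gadd45a (r 0.317) and Eda2r (r 0.0568) were only weakly tied to Cdkn1a within groups.

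After these values were seen, Arntl was set against all 9 members in the same way, because the libraries with the most Cdkn1a stood out in it, so the values are a description with no test. In the CAC mock diaphragm, Cdkn1a at 128.5 and 142.5 TPM (columns 8 and 34) went with Arntl at 22.3 and 23.5 TPM, while Arntl was at 5.07 TPM or less in the other 8 libraries, column 20 with 136.2 TPM of Cdkn1a among them. In the NONCAC mock diaphragm the highest Cdkn1a library, column 66, had the highest Arntl, 14.6 TPM, and in TA CAC column 8 had 40.9 TPM of Arntl against 3.09 to 7.94 TPM in the other 4. In soleus CAC column 8 again had the highest of both, with 10.7 TPM of Arntl.

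Over the 39 diaphragm libraries, as deviations from the group means, Cdkn1a and Arntl had r 0.607 and rho 0.572, and r was 0.529 without the 2 libraries farthest in Arntl. Within the 4 groups r ran from 0.443 (CAC rFibcd1, n = 10) to 0.82 (NONCAC mock, n = 9), and it was 0.68 over high-state and 0.637 over low-state libraries. For Mdm2 r was 0.469 and rho 0.464, and r was 0.265 with group and state means. For Gadd45a, Gadd45b and Gadd45g r was -0.161, -0.0432 and -0.000279, and for Sesn1 0.14. With the clock genes as a term the melanoma difference of Cdkn1a in the mock diaphragm was 0.93 (SE 0.238, limma adjusted p 0.00474). The hour at which the muscles were taken is not given in the sources used here, so its part was not tested.

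**Figure D5:**
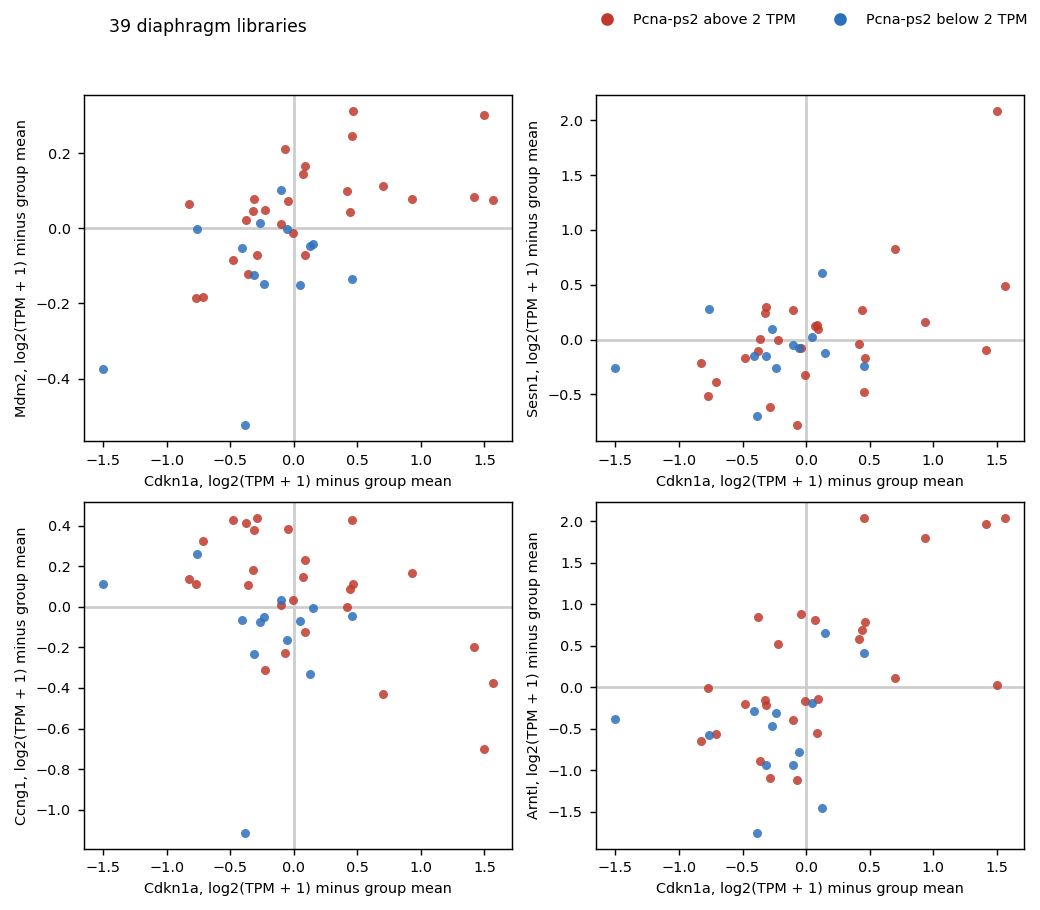
Deviation of log2(TPM + 1) from the group mean in 39 diaphragm libraries, Cdkn1a on each horizontal axis and Mdm2, Sesn1, Ccng1 and Arntl on the vertical axes, coloured by the Pcna-ps2 state. The points gave r of 0.559 for Mdm2, 0.512 for Sesn1, -0.352 for Ccng1 and, as a description only, 0.607 for Arntl.

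The genes whose means over the 8 groups ran most like a member are given as a description, with Pearson's r over 8 group means among 8762 genes. For Cdkn1a they were Mid1 (0.987), Sphk2 (0.986) and Rnf41 (0.984), with Sesn1 the most alike of the members. For Gadd45a they were Tfb2m (0.978), Art3 (0.971) and Pnpla7 (0.960), with Gadd45g the most alike member. For Eda2r they were Ccny (0.989), Nat10 (0.989) and Ddx24 (0.987), with Mdm2 the most alike member.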

How the data were processed

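The authors deposited TPM values per gene symbol for 59 libraries. They had trimmed the reads, kept those passing quality and length limits, mapped them on GRCm38 (mm10) in CLC Genomics Workbench and taken the deposited TPM from its expression module. The gene annotation is not given in the sources used here, and kit and instrument differ between labels and methods. Each column sums to 1000000, so depth is unknown and no counting interval was computed. Groups came from the labels. Genes with TPM of at least 1 in as many libraries as the smallest group of a fit holds were tested with limma 3.58.1 (R 4.3.3, lmFit, contrasts.fit, eBayes with trend, two-sided) on log2(TPM + 1), a pseudocount of 1, with Benjamini-Hochberg adjustment over all genes tested. Fits held 39 diaphragm, 10 TA, 10 soleus or 39 libraries without rFibcd1. The 9 members passed the filter in each. The fits were tested on simulated data. From each list other than cell type markers, the 2 called genes with the largest change in each muscle (mean TPM of at least 1) were named, except 1 gene that is not reported here, with Trp53 and the 3 most alike genes of Cdkn1a, Gadd45a and Eda2r. Arntl and Dbp were chosen after their values were seen. Permutations numbered 100000. Alternatives varied the pseudocount, filter, scaling, weights, libraries in the fit, library state and the test (Dunn's). Promoter and gene coordinates came from RefSeq and GENCODE on GRCm38. The members and lists were chosen with earlier results of these data known.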

Additional observations from a re-analysis of the deposited data

Results flagged for a closer look

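Each of the 9 genes was looked at in each of the 8 groups for a library far from the others (Dixon's 95% critical value), 72 looks of which chance flags about 1 in 20, and 8 stood out. In the NONCAC mock diaphragm Cdkn1a was at 37.6 TPM in column 66 (next 21.5), and in TA CAC it was at 204 TPM in column 8 (next 33.6). In that TA library Sesn1 was at 60.7 TPM (next 27.5). In the CAC mock diaphragm column 20 held 114 TPM of Gadd45a (next 41.9) and 293 TPM of Sesn1 (next 95.8). Trp53inp1 reached 13.9 TPM in column 56 of the NONCAC rFibcd1 diaphragm (next 7.62). On the low side, Gadd45b was at 7.23 TPM in column 9 of soleus CAC (next 13) and Mdm2 at 14 TPM in column 11 of the CAC rFibcd1 diaphragm (next 18.8), a low-state library.

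The effect of the melanoma differed between muscles for 2 genes by a test of the difference itself: Eda2r, with -1.46 for diaphragm minus TA (limma adjusted p 0.00845), and Gadd45a, with 1.33 for TA minus soleus (limma adjusted p 0.0401).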

How the results depend on the processing

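Over 1120 values of single genes under the alternative settings, 976 kept direction and side of the threshold. Of the rest, 24 lost the call, 47 gained one, 68 moved without a call and 5 reversed. The reversed values were Mdm2 in TA (-0.15 under median-ratio scaling, -0.11 under quantile normalization), Eda2r in NONCAC diaphragm minus TA (-0.57, quantile) and Mdm2 in NONCAC TA minus soleus (0.54 median-ratio, 0.42 quantile). Over 4041 values with 1 library left out, 3909 were the same, 27 lost and 16 gained the call, 89 moved and 0 reversed.

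Of the 9 genes, the mock diaphragm comparison called 5, 0 within high-state libraries (5.69% of all genes called) and 5 to 6 with a library left out. With rFibcd1 in both groups it called 0, 1 under quantile normalization (12.2%) and 0 to 1 with a library left out. For rFibcd1 against mock, the CAC comparison called 1 within high-state libraries (5.57%) in place of 0, and the NONCAC comparison 4 with array weights (39.9%) and 3 with only its groups in the fit (19.6%) in place of 0. TA ran from 5 to 8 and soleus from 4 to 6 with a library left out, and soleus gave 2 by Dunn's test (20%). Effects in diaphragm against TA gave 2 with array weights (11%) in place of 1. Effects in TA against soleus gave 0 without a filter (9.89%), under median-ratio scaling (11.5%), under quantile normalization (6.25%) and in a fit of all 59 libraries (9.24%), 3 with array weights (26.7%), 3 with the column number as a random block (41.2%), and 0 to 2 with a library left out. NONCAC levels of diaphragm against TA gave 6 (median-ratio, 70.9% of all genes called), 7 (quantile, 64.8%), 5 (array weights, 84%), 6 (only the groups compared, 81.7%), 4 (column block, 76.9%) and 2 to 3 with a library left out, in place of 2. Diaphragm against soleus gave 2 to 3 and TA against soleus 5 to 6 with a library left out, and the latter 8 with only its groups (85.8%). Co-variation with Cdkn1a passed for 2 genes (Mdm2 and Ccng1) in place of 1 with group and state means. The cause of these shifts was not tested.

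Over all genes, the mock diaphragm calls fell from 4501 to 2121 (median-ratio), 2297 (quantile), 2059 (library state as a term) and 805 (high-state libraries) and rose to 7341 (array weights). No paired analysis was possible on the labelled replicate numbers, because the columns carry other numbers. The column numbers recur between muscles and were used as a block instead, but whether equal numbers mark the same mouse is not given in the sources used here. That block and the clock term were chosen after seeing the data. Depth is unknown, which limits what low values such as those of Eda2r can show.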
